A study of Mus musculus with 54 samples.

Results

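Pparg was silenced with a pool of siRNAs in M2-like mouse macrophages, and the transcriptome was compared with that of M2-like macrophages given a negative siRNA pool. The comparison rests on 3 libraries with the Pparg pool and 3 with the negative pool, taken by their labels from the 36 paired-end libraries of the reprogramming experiment and from 54 libraries in the whole series. PPARγ, the product of Pparg, is a ligand-activated nuclear receptor that binds DNA as a heterodimer with a retinoid X receptor (RXR) and responds to fatty acids and their derivatives. In macrophages it is known for switching on genes of fatty acid uptake, storage and oxidation, for raising the liver X receptor (LXR) and cholesterol efflux, and for restraining inflammatory genes. IL-4 raises Pparg through STAT6, so that the receptor is counted among the regulators of alternative (M2-like) activation.

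The cells were thioglycolate-elicited peritoneal exudate cells of C57BL/6 mice aged 8 to 20 weeks. They were polarized for 24 h with 10 ng/ml IL-4, transfected with one siRNA pool each and cultured on without IL-4, and RNA was taken 48 h after transfection. Both groups therefore shared the mice's strain, the elicitation, the IL-4, the transfection reagent and the presence of siRNA, and differed in the pool. The experiment also held M2-like cells with pools against E2f1, Myc or Stat6, with all pools combined, with the reagent alone (mock) or untreated, and M0-like and M1-like cells (the latter given LPS and IFNγ). The labels number the replicates 1 to 3 without saying whether they came from separate mice, so the p-values measure the spread between these libraries, which may be technical. In bulk RNA, fewer cells of a type and less RNA per cell cannot be told apart.

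Libraries of the Pparg pool held 14819376 to 19307446 counted read pairs and those of the negative pool 15505223 to 18150125. Levels are given as CPM, counts scaled to the same library total, and tests are edgeR's quasi-likelihood test with Benjamini-Hochberg adjustment over the 14172 genes tested. A gene was called at an adjusted p under 0.05, and differences between groups are log2 fold changes with their standard error (SE). The 8 macrophage markers were all detected, with summed levels of 12470.0 to 13831 CPM with the Pparg pool and 12511 to 13558 CPM with the negative pool. Of them only Cd14, the lipopolysaccharide co-receptor, was called (0.33 ± 0.09, adjusted p = 0.029), joined with the replicate number as a block by Cd68 (−0.21, adjusted p = 0.0472) and Mertk (−0.23, adjusted p = 0.0317). Lists of T and NK cell, B cell, neutrophil, eosinophil, mast cell, dendritic cell and mesothelial or fibroblast markers held no called gene. The T and NK list summed to 851 to 933 CPM and 827 to 883 CPM in the respective groups, nearly all of it Il7r, with 6 of its 10 genes under 1 CPM in all 6 libraries. Neutrophil markers summed to 4.01 to 6.00 and 5.27 to 7.38 CPM with S100a9 and Retnlg at 0, eosinophil markers to 30.2 to 46.3 and 33.6 to 38.9 CPM with Prg2 and Epx at 0. Mast cell markers summed to 4.16 to 4.99 and 5.47 to 8.18 CPM, and dendritic cell markers to 3.87 to 4.99 and 3.31 to 4.60 CPM. B cell markers, most of them Cd22, lay at 164 to 168.0 CPM with the Pparg pool and 136 to 149 CPM with the negative pool, while mesothelial and fibroblast markers lay at 265 to 469.5 and 287 to 417 CPM. The B cell sums did not overlap, and their part in the results was not tested. Peritoneal macrophage identity genes such as Gata6 and Timd4 summed to 50.3 to 83.8 and 51.6 to 77.7 CPM, without a call.

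Pparg itself (ENSMUSG00000000440, chr6:115360951-115490399 in GRCm38) stood at 31.6, 29.1 and 25 CPM in the 3 libraries with the Pparg pool and at 123, 138 and 129.6 CPM in the 3 with the negative pool. The groups lay far apart, and the silenced cells held 21.9% ± 2.57 (SD, n = 3) of the mean level in the negative pool. The difference was −2.19 ± 0.09 on the log2 scale (adjusted p = 2.12e-18). No other single pool brought Pparg near that level. It was 97.8 to 107 CPM with the E2f1 pool, 76.9 to 91.6 CPM with the Myc pool and 100.4 to 104 CPM with the Stat6 pool, and 33.5 to 39.0 CPM with the combined pool, which contains siRNAs against Pparg. Mock-transfected M2-like cells held 112 to 128 CPM and untransfected ones 111 to 119.5 CPM. M1-like cells, which received no Pparg siRNA, lay at 19.4 to 23.1 CPM with mock transfection, slightly below the silenced M2-like cells, while mock-transfected M0-like cells held 79.7 to 96.0 CPM.

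**Figure D1:**
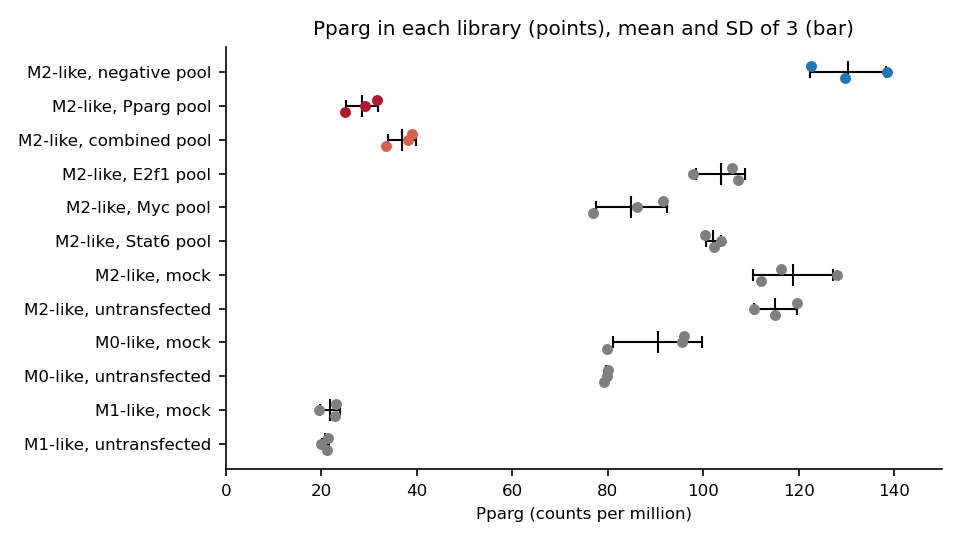
Pparg in CPM (x axis) in each of the 36 libraries (points), with the mean and SD of each condition's 3 libraries (bars). The Pparg pool libraries lie at 25 to 31.6 CPM, below every library except those of M1-like cells, and the negative pool libraries at 123 to 138 CPM.

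Most receptors and coregulators that work with PPARγ were not called. Of the 19 genes of that list 17 were tested, and Ppard, Rxra and Ppargc1b (17.6%) rose beside the fall of Pparg (5.88%). Among all genes tested 2.71% were higher and 3.03% lower. Ppard, the sister receptor PPARδ, stood at 50.1, 46.2 and 54 CPM against 34.6, 42.4 and 40.3 CPM, groups that did not overlap (0.36 ± 0.11, adjusted p = 0.0484), and it was also higher than with the other pools (0.39 ± 0.09, adjusted p = 0.00562). Rxra, the RXR partner, was at 169, 167 and 189 CPM against 147, 149.9 and 153 CPM (0.22 ± 0.06, adjusted p = 0.034). Ppargc1b, a coactivator of oxidative metabolism, was at 9.69, 11 and 12.4 CPM against 5.78, 6.6 and 7.32 CPM (0.75 ± 0.19, adjusted p = 0.0125). Ppard was not called when library scaling factors were taken by relative log expression (adjusted p = 0.0502), Rxra was not when genes were not filtered (adjusted p = 0.138), and leaving out replicate 3 of the Pparg pool or replicate 1 of the negative pool ended all 3 calls. The corepressor Ncor1 (0.01 ± 0.09), the deacetylase Hdac3 (0.03 ± 0.07), and the corepressor subunits Tbl1x (−0.03 ± 0.10) and Tbl1xr1 (0.18 ± 0.12) were not called, nor were the coactivators Ncoa1 (0.17 ± 0.09), Ncoa2 (0.08 ± 0.07), Ncoa3 (−0.05 ± 0.07), Med1 (−0.03 ± 0.07), Crebbp (0.29 ± 0.10), Ep300 (−0.03 ± 0.08) and Ppargc1a (0.14 ± 0.20). Rxrb, a further RXR, was not called either (−0.09 ± 0.08), and Ppara and Rxrg were too low to be tested. With the replicate block Crebbp was called (adjusted p = 0.0404). Per kilobase of exon, Pparg fell from a mean of 44.1 to 9.68 CPM, which left its level near the 6.67 CPM per kilobase of Ppard and below the 32 of Rxra.

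Across the transcriptome, 384 genes were higher and 430 lower with the Pparg pool than with the negative pool, together 5.74% of the 14172 tested. Most changes were small, with a median fold of 1.36 among the higher and 1.30 among the lower genes, and 36 higher and 23 lower genes passed a 2-fold change. In 381 of the 384 higher and 429 of the 430 lower genes the groups did not overlap. A lack of overlap in a called gene therefore adds little to its call. How often genes that were not called lacked overlap was not counted. With the replicate number as a block, since same-numbered libraries of the pools deviated together, 580 were higher and 588 lower. With only the compared conditions in the model 539 were higher and 525 lower. The counts also depended on single libraries. Without replicate 3 of the Pparg pool 156 genes were higher and 203 lower, without replicate 1 of the negative pool 191 and 244, and without replicate 3 of the negative pool 170 and 208, while leaving out replicate 2 of the Pparg pool left 263 lower.

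Among genes of fatty acid uptake, binding and storage, many of them textbook PPAR targets, 9 fell and 0 rose with the Pparg pool. None was higher at an unadjusted p under 0.05 or in DESeq2. Of 32 listed genes 26 were tested, with a median log2 fold change of −0.33 over the 26 against 0.01 over all genes. The 9 made up 34.6% of the 26, where 3.03% of all genes tested were lower. Angptl4, a secreted inhibitor of lipoprotein lipase and a classical PPAR target, stood at 1.47, 1.68 and 1.34 CPM with the Pparg pool and 4.21, 3.74 and 4.63 CPM with the negative pool. The groups did not overlap, and the level was 35.7% of the negative pool's (−1.47 ± 0.27, adjusted p = 0.0007). Plin2, the lipid droplet coat protein perilipin 2, was among the abundant transcripts, at 1358, 1257 and 1299 CPM against 2025, 2019.6 and 1934 CPM. Every silenced library lay below every negative one (−0.61 ± 0.13, adjusted p = 0.00381). Fabp4, the fatty acid binding protein of adipocytes and macrophages, was at 353, 359 and 346 CPM against 448, 456 and 486 CPM, again without overlap (−0.39 ± 0.11, adjusted p = 0.0358).

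The remaining members called were enzymes and regulators of the lipid droplet. Mgll, monoacylglycerol lipase, was at 123, 114 and 124 CPM against 167, 172 and 158 CPM (−0.46 ± 0.13, adjusted p = 0.0332). Pnpla2, the adipose triglyceride lipase, was at 161, 154 and 184 CPM against 228, 224 and 204 CPM (−0.40 ± 0.10, adjusted p = 0.011), and Hilpda, a small inhibitor of that lipase, at 39.2, 36.5 and 36.7 CPM against 48.9, 51.9 and 43.3 CPM (−0.36 ± 0.09, adjusted p = 0.0162). Both the lipase and its inhibitor were thus lower. Dgat1, which makes triglyceride from diacylglycerol, was at 18.3, 16.4 and 16.5 CPM against 22, 22.8 and 22.5 CPM (−0.39 ± 0.11, adjusted p = 0.0212), and Lpin1, a phosphatidate phosphatase, at 58.5, 54.7 and 46.1 CPM against 74.4, 68 and 74.3 CPM (−0.44 ± 0.11, adjusted p = 0.00979). Adipor2, an adiponectin receptor, was at 74.8, 71.9 and 69.2 CPM against 97.7, 85.8 and 99.8 CPM (−0.39 ± 0.06, adjusted p = 7.78e-05). For all 6 the silenced libraries lay below the negative ones. Dgat1 and Adipor2 were named after their values were seen, to complete the calls of the list. Hilpda was not lower than in mock-transfected cells (0.08 ± 0.09, adjusted p = 0.627). Angptl4, Plin2 and Adipor2 kept their calls without any 1 library, whereas Mgll and Fabp4 lost their calls whichever of the 6 libraries was left out, and the list kept 4 calls without replicate 2 or 3 of the Pparg pool or replicate 1 of the negative pool, and 5 without replicate 2 or 3 of the negative pool.

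Several well-known PPARγ targets did not pass the test without the block. Cd36, the fatty acid translocase and scavenger receptor, stood at 1797, 2000.0 and 1492 CPM against 2103, 2411 and 2166 CPM, groups that did not overlap, with a difference of −0.34 ± 0.13 (adjusted p = 0.116, or 0.0175 with the replicate block). Lpl, lipoprotein lipase, was at 1378, 1729.5 and 1527 CPM against 1649, 2017 and 2104 CPM, which overlapped (−0.32 ± 0.13, adjusted p = 0.161, or 0.0135 with the replicate block). Fabp5, the fatty acid binding protein of epidermis and macrophages, overlapped as well, at 686, 658 and 646 CPM against 705, 663 and 737 CPM (−0.08 ± 0.14, adjusted p = 0.821). Gdf3, a secreted factor of the TGF-β family, was at 15.7, 13.3 and 17.9 CPM against 19.1, 14.1 and 18.6 CPM and overlapped (−0.16 ± 0.19, adjusted p = 0.714). Pdk4, the pyruvate dehydrogenase kinase often used as a PPAR readout, was too low to be tested.

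**Figure D2:**
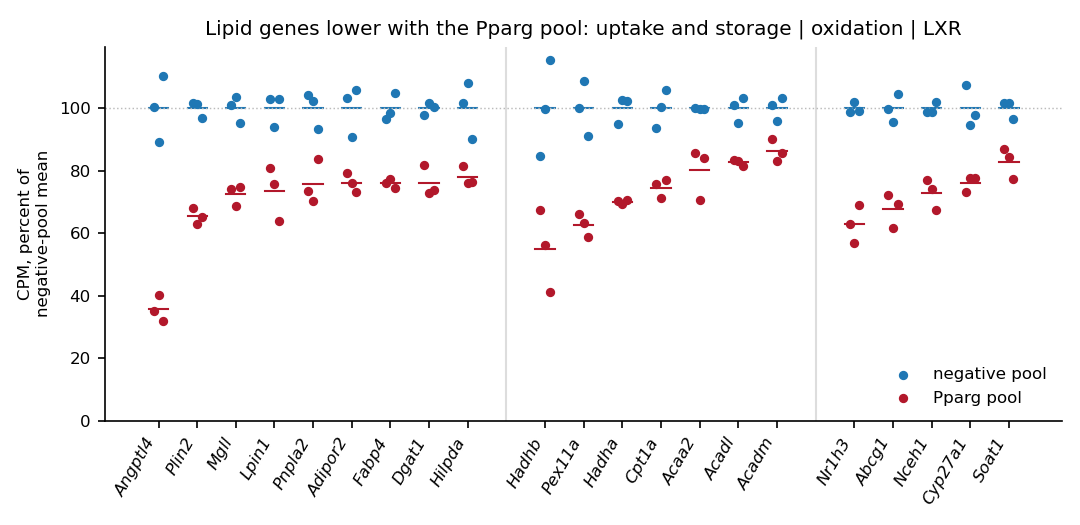
CPM of each library as a percentage of the negative-pool mean (y axis) for the called lower genes of 3 lists: fatty acid uptake and storage, fatty acid oxidation, and LXR with cholesterol efflux. Points are libraries, 3 per pool, and short lines are means. Angptl4 lies lowest at 35.7% and Acadm highest at 86.2%, and in each gene the red points (Pparg pool) lie below the blue ones (negative pool).

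In fatty acid oxidation 7 genes were lower and 0 higher, none of them higher at an unadjusted p under 0.05 or in DESeq2. Of 30 listed genes of mitochondrial and peroxisomal oxidation 25 were tested, with a median of −0.17. The 7 made up 28% of the 25, where 3.03% of all genes tested were lower. Cpt1a, the carnitine palmitoyltransferase that admits long-chain fatty acids to mitochondria, stood at 82.5, 77.5 and 83.9 CPM against 102, 109.5 and 115 CPM, without overlap (−0.42 ± 0.10, adjusted p = 0.00951). Hadha, the α subunit of the mitochondrial trifunctional protein, was at 153, 151 and 154 CPM against 207, 223 and 223 CPM (−0.51 ± 0.05, adjusted p = 1.87e-07), and its β subunit Hadhb at 6.32, 5.26 and 3.87 CPM against 7.94, 9.34 and 10.8 CPM (−0.86 ± 0.17, adjusted p = 0.0016). The subunits are encoded head to head on chromosome 5. Per kilobase of exon Hadhb held 1.42 CPM in the negative pool against 25 for Hadha, although their proteins form one complex. How reads with several matches were counted was not stated, so the level of Hadhb is uncertain.

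The dehydrogenases and the thiolase of the chain were also lower. Acadl, for long chains, was at 107, 106 and 104 CPM against 129, 122 and 132 CPM (−0.27 ± 0.07, adjusted p = 0.0206), Acadm, for medium chains, at 60.1, 55.4 and 57.1 CPM against 67.5, 64 and 68.9 CPM (−0.22 ± 0.06, adjusted p = 0.0324), and Acaa2, the thiolase, at 35.6, 29.4 and 35 CPM against 41.7, 41.6 and 41.6 CPM (−0.32 ± 0.09, adjusted p = 0.0331). Pex11a, which drives division of peroxisomes, was at 10.6, 10.2 and 9.43 CPM against 16.1, 17.5 and 14.6 CPM (−0.67 ± 0.13, adjusted p = 0.000936). None of these groups overlapped. Acadm was named after its values were seen, and it lost its call without the filter on low counts (adjusted p = 0.219). Without replicate 2 of the Pparg pool or replicate 3 of the negative pool the list kept 3 calls, without replicate 3 of the Pparg pool or replicate 1 of the negative pool 4, and 6 or 7 without either of the others. Hadha, Hadhb and Pex11a kept theirs whichever library was left out.

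The promoters of 4 of these genes are shown because PPARγ–RXR binds pairs of the hexamer AGGTCA with 1 base between them. Each runs 5′ to 3′ on the gene's own strand from 250 bases before the RefSeq start of transcription to 50 after it (GRCm38.p6), and capitals mark the hexamer or its reverse complement. Plin2 lies on the minus strand at chr4:86670010-86670309, Cpt1a on the plus strand at chr19:3323051-3323350, Acadm on the minus strand at chr3:153944594-153944893 and Hadhb on the plus strand at chr5:30155003-30155302. The Hadha window, at chr5:30154931-30155230 on the minus strand, shares 228 bases with that of Hadhb.
Plin2: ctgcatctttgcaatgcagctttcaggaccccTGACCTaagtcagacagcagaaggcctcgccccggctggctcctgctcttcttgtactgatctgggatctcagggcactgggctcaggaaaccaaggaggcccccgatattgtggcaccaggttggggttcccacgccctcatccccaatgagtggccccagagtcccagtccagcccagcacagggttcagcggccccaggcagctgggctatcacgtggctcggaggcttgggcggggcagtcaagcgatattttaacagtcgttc
Cpt1a: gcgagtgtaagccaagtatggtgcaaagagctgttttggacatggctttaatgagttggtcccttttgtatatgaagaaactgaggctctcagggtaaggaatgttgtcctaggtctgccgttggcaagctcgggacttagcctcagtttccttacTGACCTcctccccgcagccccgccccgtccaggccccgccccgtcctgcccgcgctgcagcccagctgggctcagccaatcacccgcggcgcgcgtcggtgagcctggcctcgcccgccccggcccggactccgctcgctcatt
Acadm: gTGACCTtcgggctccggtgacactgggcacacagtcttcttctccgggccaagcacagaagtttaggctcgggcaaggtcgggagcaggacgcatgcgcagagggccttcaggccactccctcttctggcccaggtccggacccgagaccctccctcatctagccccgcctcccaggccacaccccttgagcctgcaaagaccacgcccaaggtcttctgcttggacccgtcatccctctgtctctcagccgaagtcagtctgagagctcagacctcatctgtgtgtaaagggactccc
Hadhb: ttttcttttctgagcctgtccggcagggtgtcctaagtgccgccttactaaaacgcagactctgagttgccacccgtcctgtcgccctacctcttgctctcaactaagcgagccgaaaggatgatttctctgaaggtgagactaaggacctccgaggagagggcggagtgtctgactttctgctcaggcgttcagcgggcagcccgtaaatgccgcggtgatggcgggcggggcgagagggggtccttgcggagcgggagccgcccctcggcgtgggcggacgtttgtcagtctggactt

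Plin2, Cpt1a and Acadm each hold the hexamer once and Hadhb does not. Of the 12 lower genes of both lists that had a window in the table, 4 held it on either strand, namely Plin2, Lpin1, Cpt1a and Acadm. Over all 32851 RefSeq windows of this length 16.3% held the hexamer. Among genes with a window it was 17.5% of 326 lower, 18.2% of 292 higher and 14.9% of 10137 tested genes. The full repeat AGGTCANAGGTCA was in 13 of all windows and in none of the 326 windows of lower and 292 windows of higher genes. These windows say only which letters stand next to the start sites.

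LXR and cholesterol efflux genes were lower in part. Of 20 listed genes 19 were tested (median −0.17). Of these 5 were lower (26.3%, against 3.03% of all genes) and 1 higher (5.26%, against 2.71%). With the replicate block 6 were lower. Nr1h3, which encodes LXRα and is a PPARγ target in macrophages, stood at 60.1, 54.1 and 65.7 CPM against 94.1, 97.2 and 94.3 CPM, and every silenced library lay below the negative ones (−0.67 ± 0.12, adjusted p = 0.000466). Abcg1, a cholesterol exporter under LXR control, was at 392, 334 and 376 CPM against 541, 519 and 568 CPM, likewise apart (−0.56 ± 0.09, adjusted p = 0.000114). Abca1, its partner exporter and also an LXR target, was at 362, 332 and 315 CPM against 356, 314 and 439.7 CPM, with overlap (−0.14 ± 0.16, adjusted p = 0.714). The cholesteryl ester hydrolase Nceh1 (−0.46 ± 0.06, adjusted p = 1.32e-05), the esterifying enzyme Soat1 (−0.27 ± 0.06, adjusted p = 0.00726) and the sterol 27-hydroxylase Cyp27a1 (−0.39 ± 0.11, adjusted p = 0.0364) were lower, and the phosphodiesterase Smpdl3a was higher (0.29 ± 0.09, adjusted p = 0.046). Nr1h3, Abcg1 and Nceh1 kept their calls without any 1 library, whereas Cyp27a1 and Smpdl3a kept theirs in none of these 6 fits, and without replicate 3 of the Pparg pool 3 lower genes were left. Soat1 was named after its values were seen. Apoe was at 7950.4, 9006 and 8806 CPM against 9011, 8208 and 8952 CPM and overlapped (−0.02 ± 0.19, adjusted p = 0.972).

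Of 25 genes of cholesterol synthesis tested, 5 were lower than in the negative pool and 0 higher, none higher also at an unadjusted p under 0.05 and in DESeq2 (median −0.22). The 5 made up 20% of the list, where 3.03% of all genes tested were lower. With the replicate block 8 were lower. Msmo1, a sterol demethylase, was at 68.8, 73.5 and 70.3 CPM against 106, 97.5 and 122 CPM (−0.61 ± 0.11, adjusted p = 0.000529), and Hmgcs1, which makes the precursor of mevalonate, at 61.5, 67 and 78.3 CPM against 89.9, 83.2 and 109.9 CPM (−0.45 ± 0.12, adjusted p = 0.02). Squalene synthase Fdft1 (−0.56 ± 0.15, adjusted p = 0.0181) and farnesyl diphosphate synthase Fdps (−0.81 ± 0.24, adjusted p = 0.043) were also lower, though reads of Fdps can match processed copies of the gene, so its level is uncertain. Only 1 call was left without replicate 1 or 2 of the Pparg pool or replicate 3 of the negative pool, and 3 without replicate 3 of the Pparg pool or replicate 1 of the negative pool. Against mock 21 of the 25 were lower with the Pparg pool and 17 with the negative pool, where 7.63% and 5.03% of all genes were lower. Among 14 genes of fatty acid synthesis, Scd1, the stearoyl-CoA desaturase, was lower at 26.2, 24.2 and 25 CPM against 40.7, 24.9 and 56.9 CPM, with overlap (−0.71 ± 0.21, adjusted p = 0.036), and Acss2, which makes acetyl-CoA from acetate, was higher (0.70 ± 0.20, adjusted p = 0.0292). Single calls made up 7.14% of this list in each direction, against 3.03% lower and 2.71% higher among all genes. With the block 3 of the 14 genes were lower, Scd2 among them (adjusted p = 0.0105). DESeq2 did not call Scd1 (adjusted p = 0.0557). Scd1 was called in 1 and Acss2 in 3 of the 6 fits that left out 1 library.

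Few genes of the list of NF-κB targets, cytokines and chemokines were called, though the higher ones were a larger share than among all genes. Outside this list, Clec4e, Clec4n and Nlrp3 were also called higher and Mavs lower. Of 38 listed NF-κB targets, cytokines and chemokines 35 were tested (median 0.28). Of these 3 were higher (8.57%, against 2.71% of all genes) and 1 lower (2.86%, against 3.03%). At an unadjusted p under 0.05, 10 were higher and 1 lower. With the replicate block 8 were higher, and 9 without the filter on low counts or with only the compared conditions in the model. Acod1, which makes itaconate from a citrate cycle intermediate, stood at 56.3, 53.5 and 94.5 CPM against 18, 17.3 and 24 CPM, without overlap (1.78 ± 0.36, adjusted p = 0.0016). Cd86, a costimulatory ligand, was at 22.6, 23.8 and 20.05 CPM against 15.1, 15 and 13 CPM (0.63 ± 0.12, adjusted p = 0.00123), and the NF-κB subunit Relb at 22.5, 24.5 and 31.6 CPM against 15.8, 17.2 and 16.8 CPM (0.66 ± 0.17, adjusted p = 0.0159). In both the silenced libraries lay above the negative ones. Acod1 and Cd86 kept their calls without any 1 library, and Relb was called in 3 of 6 such fits. Tnfaip2 was lower, at 488, 438 and 491 CPM against 591, 563 and 558 CPM (−0.27 ± 0.07, adjusted p = 0.0119). Tnf was at 21.4, 16 and 22 CPM against 15.2, 11.8 and 12.6 CPM and Ccl2, the monocyte chemokine, at 28.9, 41.5 and 39 CPM against 16.4, 24.8 and 20.6 CPM. Neither passed the test, although their groups did not overlap (Tnf 0.58 ± 0.19, adjusted p = 0.0746, Ccl2 0.83 ± 0.26, adjusted p = 0.0571). With the replicate block both did (adjusted p = 0.0441 and 0.00156). Il1b, Il6 and Nos2 stood below 1 CPM in all 6 libraries, and their differences (−0.29 ± 0.96, 0.21 ± 0.73 and 0.77 ± 0.64) had wide errors.

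Interferon-stimulated genes held 0 calls among 41 tested in edgeR and 0 in DESeq2, with 3 at an unadjusted p under 0.05 and a median of 0.14. Ifit1 stood at 163, 144 and 178 CPM against 145, 141 and 155 CPM and Isg15 at 127, 113 and 150.4 CPM against 109, 110.5 and 133 CPM, both with overlap. Cxcl10 was at 7.3, 9.73 and 10.4 CPM against 4.33, 4.47 and 6.01 CPM (0.89 ± 0.49, adjusted p = 0.332). Both pools lay far above mock in these genes: 40 of 41 were higher with the Pparg pool than with mock and 39 of 41 with the negative pool, where 9.59% and 6.67% of all genes were higher. Against the negative pool 8 of the list were higher without the filter on low counts, 6 with only the compared conditions in the model and 1 with the replicate block.

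Genes listed for IL-4 alternative activation did not fall as a group. Whether IL-4 raised each of them in these cells was not tested. Of 32 listed 29 were tested, of which 4 were higher (13.8%, against 2.71% of all genes) and 0 lower (median 0.21). At an unadjusted p under 0.05, 8 were higher and 2 lower, and DESeq2 called 3 higher and 0 lower. With the block 6 genes were higher, Irf4 among them (adjusted p = 0.00716). Without the filter on low counts 7 genes were higher, and 2 were left without replicate 3 of the Pparg pool or replicate 3 of the negative pool. The called ones were feedback inhibitors and regulators. Cish, an inhibitor of cytokine receptor signalling, was at 1.47, 2.16 and 2.04 CPM against 0.662, 0.534 and 0.572 CPM (1.67 ± 0.37, adjusted p = 0.0041), and its relative Socs1 at 11.4, 12 and 13.9 CPM against 7.52, 7.14 and 4.46 CPM (0.97 ± 0.27, adjusted p = 0.029). Il1rn, the IL-1 receptor antagonist, was at 229, 214 and 247 CPM against 126, 137 and 132 CPM (0.80 ± 0.16, adjusted p = 0.00167) and the transcription factor Egr2 at 189, 199 and 204 CPM against 141, 156 and 137 CPM (0.45 ± 0.11, adjusted p = 0.011). In each the silenced libraries lay above the negative ones. Cish and Il1rn kept their calls without any 1 library, and Socs1 and Egr2 were called in 3 of 6 such fits. The usual M2-like markers were not called. Arg1 was at 30.3, 94.9 and 26 CPM against 34.8, 65.4 and 32.6 CPM, Retnla at 163, 349 and 92.2 CPM against 180.5, 368 and 139 CPM, Chil3 at 892, 874 and 579 CPM against 1011, 864 and 765 CPM and Mrc1 at 404, 413 and 363 CPM against 361, 338 and 361 CPM. Arg1 and Retnla were highest in replicate 2 of both pools, and their errors were wide (Arg1 0.21 ± 0.66, Retnla −0.18 ± 0.45), while those of Chil3 (−0.17 ± 0.16) and Mrc1 (0.15 ± 0.14) were narrower.

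The other lists held few calls, where 2.71% of all genes tested were higher and 3.03% lower. Single calls made up 4.35% of the citrate cycle list in each direction. In RNA interference and nucleic acid sensing a single lower call made up 5.26%. Among 28 efferocytosis and scavenger receptor genes, Itgav, an integrin subunit for engulfment (−0.43 ± 0.10, adjusted p = 0.00587), the lysosomal receptor Scarb2 (−0.35 ± 0.07, adjusted p = 0.00167) and Elmo1, which activates Rac (−0.29 ± 0.07, adjusted p = 0.00775), were lower, and 0 were higher, with 4 higher at an unadjusted p under 0.05 and 0 in DESeq2. The block gave 5 lower and 1 higher. In the steps from glucose to lactate, 3 of 23 genes were higher, namely the hexokinase Hk1 (0.39 ± 0.09, adjusted p = 0.0039), Pfkfb3, which makes the activator of phosphofructokinase (0.30 ± 0.08, adjusted p = 0.0134), and Pkm, pyruvate kinase (0.28 ± 0.07, adjusted p = 0.0121). Ldha, lactate dehydrogenase, was lower (−0.28 ± 0.09, adjusted p = 0.0496). Of these increases 0 were left without replicate 1 of the negative pool, and 1 gene of the list was higher without replicate 3 of the Pparg pool or replicate 3 of the negative pool. With the block 4 genes of the list were higher. Of 23 citrate cycle genes Idh1 was lower (−0.36 ± 0.08, adjusted p = 0.00381) and Acod1, listed there as well, higher, with 2 higher under the block. H2-Ab1 was higher among 10 genes of MHC class II (0.40 ± 0.11, adjusted p = 0.0287), Gch1, which starts tetrahydrobiopterin synthesis, among 11 of arginine and nitric oxide (0.41 ± 0.10, adjusted p = 0.00958), and Mavs, the adaptor of the RNA sensors, was lower among 19 of RNA interference and nucleic acid sensing (−0.31 ± 0.09, adjusted p = 0.0434), where the block gave 3 lower. Of the genes named in these lists Itgav and Scarb2 kept their calls without any 1 library, while Ldha kept its in 0 of 6 such fits and H2-Ab1 and Mavs in 1. Against mock H2-Ab1 was not called (−0.04 ± 0.11, adjusted p = 0.853).

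DNA replication and mitosis (32 tested), IMP synthesis (8) and lysosomal enzymes with the V-ATPase (29) held 0 calls in edgeR. At an unadjusted p under 0.05 they held 2, 3 and 9 genes, and DESeq2 called 0, 0 and 2. With the block 2 lysosomal genes were lower.

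**Figure D3:**
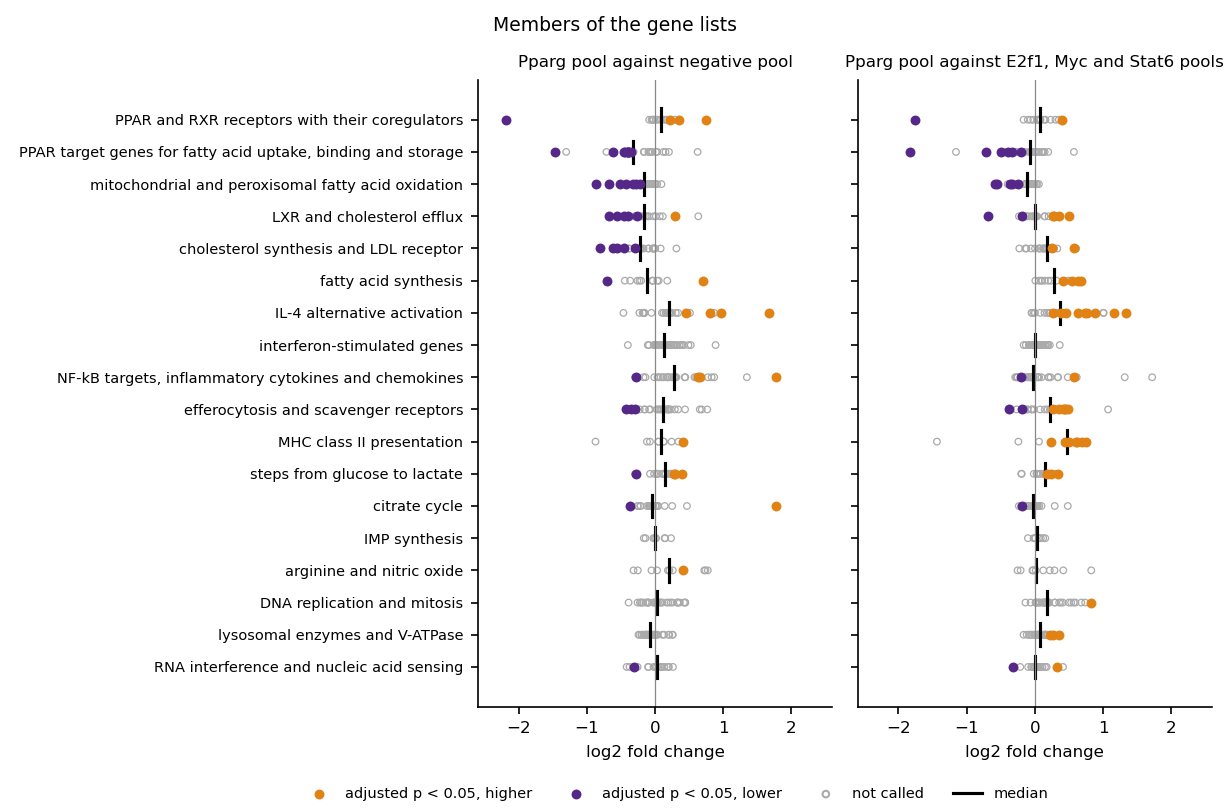
Log2 fold change (x axis) of every tested member of the 18 gene lists, against the negative pool (left) and against the mean of the E2f1, Myc and Stat6 pools (right). Filled points passed an adjusted p under 0.05 and black ticks are medians. The uptake and storage list has its median at −0.33 on the left and −0.08 on the right, and the MHC class II list at 0.09 and 0.47.

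Further large decreases were in genes of varied function. Slco2b1, an organic anion transporter, stood at 3.72, 3.63 and 2.81 CPM against 11.4, 15.5 and 14.4 CPM (−2.01 ± 0.24, adjusted p = 3.47e-06), the glycosyltransferase B3gnt7 at 2.88, 1.68 and 2.67 against 9.63, 7.4 and 7.66 CPM (−1.79 ± 0.23, adjusted p = 5.97e-06) and the hydrolase Cmbl at 2.95, 5.1 and 3.45 against 11.1, 14.3 and 10.6 CPM (−1.62 ± 0.21, adjusted p = 5.53e-06). Ramp1, a subunit of the receptor for calcitonin gene-related peptide, was at 6.32, 5.1 and 4.99 against 13.4, 13.4 and 14.1 CPM (−1.32 ± 0.22, adjusted p = 0.000183). Cdkn1c, the cyclin-dependent kinase inhibitor p57, was the most abundant of them, at 373, 351 and 413 against 925, 928 and 802 CPM (−1.23 ± 0.18, adjusted p = 2.65e-05). In mock-transfected M2-like cells it averaged 471 ± 44 CPM (SD, n = 3), and against mock the difference was −0.31 ± 0.18. Sort1, the sorting receptor sortilin, was at 65.1, 62.7 and 57.2 against 117, 122 and 130.0 CPM (−0.99 ± 0.15, adjusted p = 4.51e-05), and Unc119, a carrier of lipidated proteins, at 14, 14.3 and 17 against 32.6, 34.8 and 30.7 CPM (−1.12 ± 0.14, adjusted p = 3.95e-06). Ace, the angiotensin-converting enzyme (−1.18 ± 0.24), the tetraspanin Tspan7 (−1.01 ± 0.12) and Thap2 (−0.89 ± 0.18) were further ones. These were among the largest called decreases with no overlap between the groups and an average level of 2 or more in log2 CPM, as the rule for naming them requires, and all of them kept their calls without any 1 library. Against mock Tspan7 was not called (0.01 ± 0.13, adjusted p = 0.96). Against the mean of the E2f1, Myc and Stat6 pools, the ones also called lower were Cmbl, Cdkn1c, Sort1, Unc119 and Tspan7.

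The 12 largest increases, among called genes with the same limits on level and overlap, were in genes of varied function, with pattern receptors and the inflammasome sensor among them. After Acod1 came H2-M2, an MHC class I gene, at 16.6, 13.8 and 25.9 against 4.81, 4 and 7.55 CPM (1.75 ± 0.37, adjusted p = 0.00317), and the adhesion protein Flrt3 at 15, 19.7 and 13.9 against 5.84, 5.2 and 4.52 CPM (1.65 ± 0.24, adjusted p = 2.83e-05). Mmp8, a collagenase, was at 87.8, 83 and 109.6 against 29.7, 24.9 and 39.2 CPM (1.57 ± 0.21, adjusted p = 6.35e-06). Clec4e and Clec4n, which encode the pattern receptors Mincle and Dectin-2, were at 32.9, 39.3 and 41.6 against 10.8, 14.1 and 14.9 CPM (1.52 ± 0.28, adjusted p = 0.000583) and 7.66, 9.52 and 9.29 against 2.17, 7 and 2.4 CPM (1.22 ± 0.36, adjusted p = 0.036). Nlrp3, the inflammasome sensor, stood at 29.8, 34 and 30.5 against 13.2, 13.5 and 13.4 CPM, a narrow spread within each group (1.24 ± 0.14, adjusted p = 9.42e-07). The MAP kinase phosphatases Dusp4 and Dusp8 were at 117, 132 and 141 against 49.9, 54.1 and 41.6 CPM (1.43 ± 0.16, adjusted p = 4.37e-07) and 7.09, 9.1 and 4.99 against 3.31, 3.34 and 2 CPM (1.31 ± 0.31, adjusted p = 0.00849). Csrnp1 (1.12 ± 0.15), Ms4a4c (1.12 ± 0.28) and the receptor Flt4 (1.05 ± 0.27) were the others. DESeq2 did not call Ms4a4c (adjusted p = 0.091). Ms4a4c, Flt4 and Dusp8 were called in 4 and Clec4n in 2 of the 6 fits that left out 1 library, and the others in all of them. Against the mean of the E2f1, Myc and Stat6 pools, the ones also called higher were Flrt3, Mmp8, Nlrp3, Dusp4, Dusp8 and Csrnp1.

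**Figure D4:**
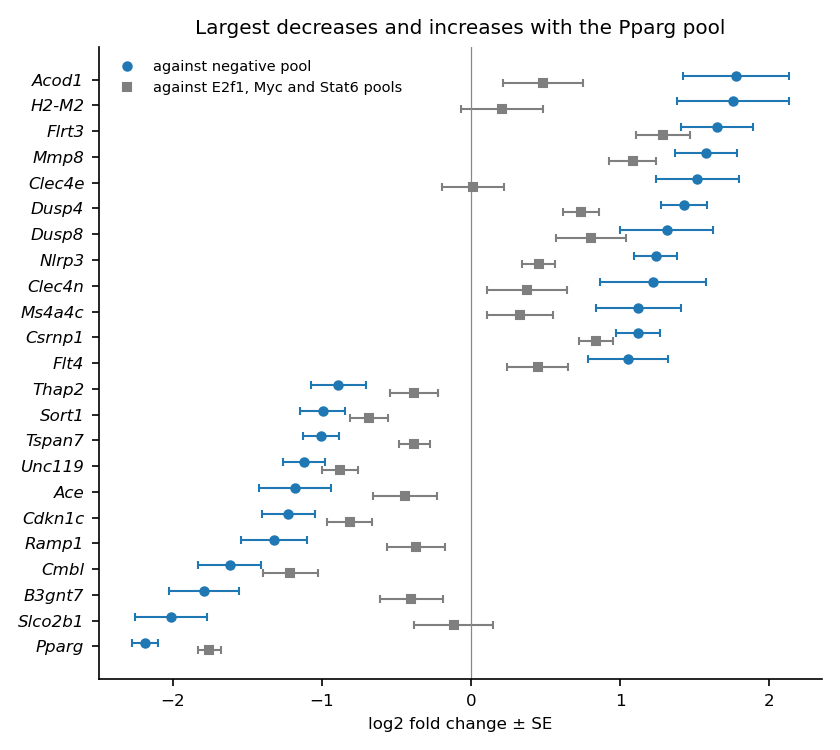
Log2 fold change with its SE (x axis) of the largest decreases and increases named in the text, against the negative pool (circles), with the same genes against the mean of the E2f1, Myc and Stat6 pools (squares). Pparg stays far below 0 by both references, whereas Slco2b1 and Clec4e lie near 0 against the other pools.

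A second reference asked how much of this was seen against cells given other active siRNAs: the Pparg pool was set against the mean of the 9 libraries with E2f1, Myc or Stat6 pools. This comparison uses the same 3 Pparg libraries, and the reference cells had E2f1, Myc or Stat6 silenced, the last being the factor through which IL-4 acts. With this reference 398 genes were higher (2.81% of those tested) and 234 lower (1.65%), or 610 and 336 with the replicate block. Without replicate 2 of the Pparg pool 233 were higher and 114 lower, and without its replicate 3 160 and 103. Of the targets of those pools, E2f1 (0.80 ± 0.09, adjusted p = 5.15e-07), Myc (0.61 ± 0.12, adjusted p = 0.00143) and Stat6 (0.58 ± 0.07, adjusted p = 4.12e-06) were higher than in the mean of the other pools, while against the negative pool they were not called (E2f1 0.29 ± 0.11, Myc 0.21 ± 0.15, Stat6 −0.02 ± 0.09).

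By this reference 6 of the 26 uptake and storage genes (23.1%) and 5 of the 25 oxidation genes (20%) were lower, against 1.65% of all genes. None was higher, also at an unadjusted p under 0.05 and in DESeq2. Angptl4 had the largest decrease that passed the rule for naming. It stood at 4.16 to 6.36 CPM with a median of 5.42 CPM over the 9 libraries, all above the silenced ones (−1.84 ± 0.23, adjusted p = 4.61e-06). Plin2 stood at 1952 to 2413 CPM with a median of 2123 CPM (−0.72 ± 0.11, adjusted p = 9.44e-05), Hilpda at 45.3 to 66.2 CPM with a median of 50.5 CPM (−0.49 ± 0.08, adjusted p = 0.000104) and Cpt1a at 107 to 144 CPM with a median of 116 CPM (−0.55 ± 0.09, adjusted p = 8.03e-05), and in each the silenced libraries lay below all 9. Pex11a (−0.59 ± 0.11, adjusted p = 0.000769), Acadl (−0.36 ± 0.06, adjusted p = 0.000279), Acaa2 (−0.34 ± 0.08, adjusted p = 0.00612), Hadha (−0.25 ± 0.04, adjusted p = 0.000653), Pnpla2 (−0.39 ± 0.08, adjusted p = 0.00313), Dgat1 (−0.33 ± 0.09, adjusted p = 0.024) and Adipor2 (−0.21 ± 0.05, adjusted p = 0.014) were lower as well. Pex11a and Dgat1 were not called without the Myc pool in the reference (adjusted p = 0.069 and 0.053). Nr1h3 lay at 87.1 to 108 CPM with a median of 96.8 CPM, without overlap (−0.69 ± 0.10, adjusted p = 3.76e-05). Abcg1 did not pass (−0.23 ± 0.08, adjusted p = 0.0746, or 0.0497 with the replicate block), nor did Fabp4 (−0.28 ± 0.10, adjusted p = 0.096), and for Mgll (−0.20 ± 0.11) and Lpin1 (−0.07 ± 0.09) the difference was smaller than against the negative pool.

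Other groups gave other counts with the second reference, where 2.81% of all genes tested were higher and 1.65% lower. Of the 14 fatty acid synthesis genes 4 were higher and 0 lower (0 also at an unadjusted p under 0.05 and in DESeq2): Scd1 (0.67 ± 0.17, adjusted p = 0.0175), Scd2 (0.63 ± 0.18, adjusted p = 0.0395), Fasn (0.54 ± 0.13, adjusted p = 0.0124) and the desaturase Fads1 (0.41 ± 0.07, adjusted p = 0.000523). Scd1, lower against the negative pool, thus changed sign with the reference. When the Myc pool, which came from another supplier, was left out of the reference, none of these 4 was called (adjusted p 0.187 to 0.804). In cholesterol synthesis 2 genes were higher and 0 lower. Insig1, which retains the sterol sensor in the endoplasmic reticulum, was one of them (0.25 ± 0.07, adjusted p = 0.0305), and without the Myc pool in the reference it was not called. Of 10 MHC class II genes 7 were higher, with H2-Eb1 (0.75 ± 0.09, adjusted p = 2.35e-06), H2-Ab1 (0.70 ± 0.09, adjusted p = 4.74e-06), H2-Aa (0.61 ± 0.10, adjusted p = 0.00019) and their transactivator Ciita (0.62 ± 0.12, adjusted p = 0.00104) among them. Of the 29 genes listed for IL-4 alternative activation 9 were higher, including the transcription factor Irf4 (0.76 ± 0.15, adjusted p = 0.00168) and the PD-1 ligand Pdcd1lg2 (1.16 ± 0.31, adjusted p = 0.0214). Ciita and Pdcd1lg2 were not called without the Myc pool in the reference. Of the 6 B cell markers Cd22 was higher by this reference (0.34 ± 0.07, adjusted p = 0.00318), and its part in these results was not tested. With the replicate block Mrc1 (0.37, adjusted p = 0.00919), Retnla (0.37, adjusted p = 0.0419), Il1rn (0.40, adjusted p = 0.0238) and Acss2 (0.50, adjusted p = 0.00472) were also higher, as were the markers Csf1r, Itgam and Siglecf (adjusted p = 0.025, 0.0104 and 0.0464), and Cd36 (−0.27, adjusted p = 0.0276), Idh1 (−0.20, adjusted p = 0.0452) and Ldha (−0.20, adjusted p = 0.0431) were lower. Of 28 efferocytosis genes 6 were higher, led by the bridging protein Mfge8 (0.48 ± 0.06, adjusted p = 3.59e-06), and 2 lower. Interferon-stimulated genes had a median of 0.00 by this reference, and edgeR called 0 of 41 (1 at an unadjusted p under 0.05, 0 called by DESeq2). Of 35 inflammatory genes 1 was higher (Cd86, 0.57 ± 0.10, adjusted p = 0.000278) and 1 lower (Tnfaip2, −0.21 ± 0.06, adjusted p = 0.0244), and Acod1, whose level ran over 13.8 to 317 CPM with a median of 30.1 CPM, was not called (0.48 ± 0.27, adjusted p = 0.386).

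The remaining lists held few calls by this reference. LXR and efflux genes had 4 higher, among them Pltp (0.35 ± 0.09, adjusted p = 0.0118), and 2 lower of 19, glycolysis 3 higher of 23, lysosomal enzymes 3 higher of 29 and the citrate cycle 1 lower of 23. Without the Myc pool in the reference Pltp was not called (−0.10, adjusted p = 0.708). DNA replication and RNA interference had 1 higher each, the latter also 1 lower, and IMP synthesis and arginine metabolism held 0 calls in edgeR (0 and 2 genes at an unadjusted p under 0.05, 0 and 0 called by DESeq2). Among called genes without overlap with the 9 libraries and with an average of 2 or more in log2 CPM, the largest decreases after Angptl4 and Pparg included Unc119 (−0.88 ± 0.12, adjusted p = 1.79e-05), the transcription factor Fos (−0.86 ± 0.23, adjusted p = 0.0202), Cdkn1c (−0.81 ± 0.15, adjusted p = 0.000852), Ceacam16 (−0.78 ± 0.18) and Wrb (−0.76 ± 0.10). With the same limits the largest increases were Flrt3 (1.29 ± 0.18, adjusted p = 1.98e-05), the VEGF receptor Flt1 (1.13 ± 0.13, adjusted p = 1.68e-06), Mmp8 (1.08 ± 0.16, adjusted p = 3.16e-05), Plekhf1 (1.04 ± 0.15), L1cam (0.92 ± 0.14), Fgl2 (0.91 ± 0.16), Socs1 (0.88 ± 0.21) and Ceacam19 (0.88 ± 0.10). Cmbl was also lower (−1.21 ± 0.18, adjusted p = 6.78e-05), with 1 of the 3 silenced libraries above the lowest of the 9 (3.72 to 15.3 CPM with a median of 12.1 CPM). Whether a gene's change differed between the references was not tested.

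The study set out to turn M2-like cells toward the M1-like state. For Pparg silenced alone, the paper reports a significant shift of its signature genes in that direction, with mock-treated M2-like cells as the control. Neither the negative pool nor the other pools are that control. Each called gene was also read in M1-like mock against M2-like mock cells, 6 libraries that are in neither pool comparison. There 4373 genes (30.9%) were higher and 4224 (29.8%) lower in M1-like cells, together 60.7% of those tested. Of the 430 genes lowered by the Pparg pool against the negative pool, 248 (57.7%) were lower in M1-like cells and 74 (17.2%) higher. Of the 384 raised genes 184 (47.9%) were higher in M1-like cells and 89 (23.2%) lower. Both shares toward the M1-like state lay above the shares of all genes. With the replicate block the counts were 333 and 111 among the lowered and 270 and 151 among the raised genes. Without replicate 3 of the Pparg pool they were 138 and 23 among the lowered and 79 and 33 among the raised genes, without replicate 1 of the negative pool 154 and 36, and 93 and 47, and without replicate 3 of the negative pool 136 and 28, and 85 and 42. Without replicate 2 of the Pparg pool 164 and 38 lowered genes were left, and without replicate 2 of the negative pool 43 of the lowered genes were higher in M1-like cells. In each of these fits the genes on the M1-like side outnumbered the others in both directions. With M2-like mock as the reference, 780 of 1359 raised genes (57.4%) were higher in M1-like cells and 227 (16.7%) lower. Of 1082 lowered genes 793 (73.3%) were lower and 69 (6.38%) higher. The M2-like mock libraries are also part of the M1-like contrast, so these counts are not independent of it.

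With the other pools as the reference, of 398 raised genes 213 (53.5%) were lower in M1-like cells and 103 (25.9%) higher, and of 234 lowered genes 94 (40.2%) were lower and 73 (31.2%) higher in M1-like cells. By this reference more of the raised genes were lower than higher in M1-like cells, and by the negative pool more were higher than lower. Acod1 (7.47 ± 0.48), Clec4e (5.23 ± 0.30) and Cd86 (4.05 ± 0.13) were examples of raised genes that were higher in M1-like cells, while Dusp4 was lower there (−0.55 ± 0.16) and Mmp8 not called (−0.46 ± 0.23, adjusted p = 0.0858). Among the lowered genes Nr1h3 (−1.95 ± 0.13), Hadha (−1.32 ± 0.06) and Cdkn1c (−4.20 ± 0.21) were lower in M1-like cells, Hilpda was higher there (2.47 ± 0.09), and Cpt1a was not called (−0.12 ± 0.10, adjusted p = 0.306).

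**Figure D5:**
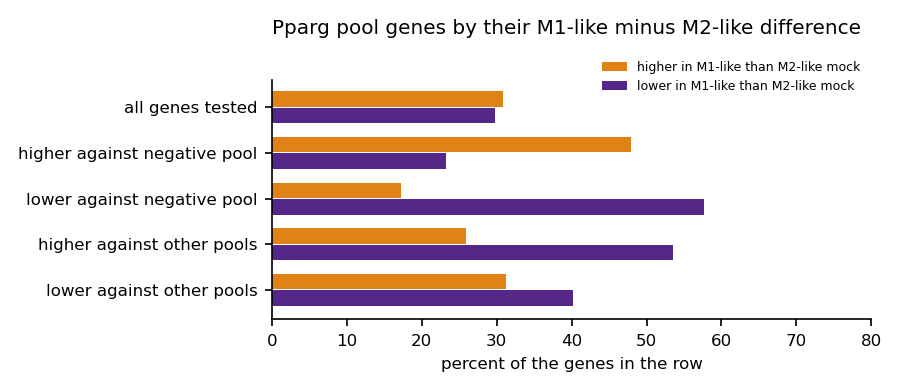
Share of genes (x axis, percent) that were higher (orange) or lower (purple) in M1-like than in M2-like mock cells, for all 14172 genes tested and for those higher or lower with the Pparg pool by each reference. Against the negative pool 57.7% of the lowered genes were lower in M1-like cells, and against the other pools 53.5% of the raised genes were.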

How the data were processed

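Per the labels and the study's methods, the authors trimmed paired reads with Trimmomatic, aligned them to the mouse genome mm10 with TopHat2 and counted them per Ensembl gene with featureCounts. The deposited values are raw counts. Tool versions, the annotation release, the strand setting and the treatment of reads with several matches are not given in the sources used here, so antisense, overlapping and near-identical genes are uncertain. Symbols and coordinates came from GENCODE M21 and promoters from RefSeq.

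All 36 paired-end libraries, in 12 conditions, entered 1 edgeR model (version 4.0.16, R 4.3.3). Genes were kept by filterByExpr (minimum count 10, minimum total 15), scaled by TMM and tested by the quasi-likelihood test with Benjamini-Hochberg adjustment, called at an adjusted p under 0.05. The standard error is the absolute log2 fold change divided by the square root of F. No pair of replicates in the 2 groups differed by as little as sampling noise, with a chi-square per gene of 4.48 to 10.4. The scripts were tested on simulated data.

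The labels do not say what a replicate number shares. In the data, deviations from the group means correlated at 0.119 to 0.129 between same-numbered libraries of the Pparg and negative pools (3 pairs) and at −0.067 to −0.054 between different numbers, and with the other pools at 0.135 to 0.230 (9 pairs) and −0.168 to −0.030. The numbers were therefore used as a block in an alternative fit, while the main tests were unpaired. Blocked values stand beside the named genes whose call they change.

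Genes were named by rule: the 4 siRNA targets, the 12 largest changes in each direction with complete separation and a mean log2 CPM of at least 2 (8 against the other pools), the 4 largest called members of each list, every receptor and coregulator, marker genes and a short list of PPAR, M2-like and inflammatory genes named whatever their values. A few genes that the rule names are not reported here. Gene lists and members were chosen with earlier results of these data known. The alternatives were relative log expression scaling, no filter, a minimum of 10 counts in every library, DESeq2 (version 1.42.0), a model of only the compared conditions, the replicate block, leaving out each library, another reference, a 2-fold minimum, and other M1-like contrasts.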

Additional observations from a re-analysis of the deposited data

How the results depend on the processing

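The log2 fold change of Pparg lay between −2.26 and −2.10 when 1 library was left out and stayed called in every setting tried. The 384 higher and 430 lower genes became 580 higher (588 lower) with the replicate block, 1359 and 1082 with M2-like mock as the reference, 36 and 23 with a log2 fold change of at least 1, and 156 to 337 and 203 to 366 when 1 library was left out. Against the other pools, 398 higher and 234 lower genes became 610 higher with the replicate block, 256 higher with only the E2f1 and Stat6 pools as the reference, 27 and 12 with a log2 fold change of at least 1, and 160 to 373 and 103 to 226 without 1 library. Of the 184 genes higher both with the Pparg pool and in M1-like cells, 19 also passed a log2 fold change of at least 1 and 79 to 153 were left without 1 library. For the 89 higher with the pool and lower in M1-like cells, the counts were 153 without a filter, 142 with only the compared conditions in the model, 151 with the replicate block, 4 with the fold minimum and 33 to 90 without 1 library. For the 74 lower with the pool and higher in M1-like cells they were 1 with the fold minimum and 23 to 68 without 1 library, and for the 248 lower in both 17 and 136 to 199. A fold minimum can only lower a count, by construction. For the other settings the cause was not tested, and the counts with a library left out depended on which library it was.

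Among 138 results on named genes, 1860 of 2143 comparisons with another setting kept direction and call, 278 lost the call and 5 changed sign. With mock as the reference H2-Ab1 stood at −0.0422, Hilpda at 0.0814 and Tspan7 at 0.0150, and with only the E2f1 and Stat6 pools as the reference Insig1 stood at −0.0097 and Pltp at −0.0988, none of them called. Of 77 named calls against the negative pool 36 held without any 1 library, and of 61 against the other pools 34. The replicate block ended no call of a named gene, and it added 9 against the negative pool and 11 against the other pools, with no other call of a named gene changed. Of 468 list counts under another setting 348 stayed within 1.5 times, among them counts of 0 that stayed at 0. For Il1b, Il6 and Nos2, below 1 CPM in the 6 libraries, no difference was detectable at this depth.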
